A study of Mus musculus with 8 samples.

Results

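The PGC-1, PPAR and ERR regulators of oxidative metabolism were followed in soleus muscle as 10 genes: the coactivators Ppargc1a and Ppargc1b, the corepressor Nrip1, the nuclear receptors Ppara, Ppard, Esrra and Esrrg, the nuclear respiratory factors Nrf1 and Gabpa, and the mitochondrial transcription factor Tfam. They were found as the non-control spots whose gene name was one of these symbols, which gave 26 of the 56605 probes on the array. Of these, 25 exceeded background clearly on at least 4 arrays and were kept, and the brightest kept probe stood for each gene. All 10 genes were measured, out of 22222 genes tested, and all 10 were well above background on all 8 arrays. One group of 4 samples came from mice that received the gum bacterium Porphyromonas gingivalis in saline through a feeding needle, and the other group of 4 from mice that received saline alone. All mice were male C57BL/6J on a high-fat diet, entered at 8 weeks of age, were treated for 6 weeks and were 14 weeks old when sampled, and no genetic change is named. The series asks how the bacterium given by mouth affects gene expression in this muscle. The labels do not say that each sample is a separate mouse, so each p-value measures the spread among the samples, which may be technical.

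Each value below is a log2 processed signal minus the 75th percentile of its array, so 0 is the level of that percentile and a difference of 1 is a doubling. Differences are P. gingivalis minus saline, and the probes of different genes differ in brightness for reasons other than RNA level, so levels are not compared between genes. By their barcodes all 8 arrays lay on 1 slide. The next field of the barcode was 1 for all P. gingivalis arrays and 2 for all saline arrays. That field was read as the side of the slide, which is not stated. Any effect of it cannot be told apart from that of the treatment. A table deposited with the arrays carries the groups exchanged: all 8 of its columns matched the array of the other group with the same number. Groups follow the sample records here, which source is right is not settled, and every direction given would turn if the table's names were right. Probes well above background numbered 34853 to 35367 on the P. gingivalis arrays and 30180 to 34077 on the saline arrays, so more probes were detected on each P. gingivalis array. All 9 slow-fibre markers were kept, with summed signals of 3441 to 3723 times the array's 75th percentile in P. gingivalis samples and 3123 to 3325 times in saline samples. All 10 fast-fibre markers were kept as well, with sums of 2892 to 3735 times in P. gingivalis samples and 2641 to 3060 times in saline samples, so the markers show skeletal muscle but do not single out soleus. By mean log2 level of the 10 fast-fibre markers, the lowest sample of each group was P. gingivalis 3 at 6.73 and saline 1 at 6.22. In whole muscle, fewer cells of a type and less RNA per cell cannot be told apart.

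PGC-1alpha and PGC-1beta, the products of Ppargc1a and Ppargc1b, do not bind DNA themselves. They dock on PPAR and ERR nuclear receptors and on the nuclear respiratory factors and recruit the enzymes that open chromatin, which raises transcription of genes for fat oxidation, the citric acid cycle and the respiratory chain. NRF1 and the GABP complex, whose DNA-binding subunit Gabpa encodes, act on nuclear genes for mitochondrial proteins, among them Tfam, whose product packages and transcribes mitochondrial DNA. RIP140, the product of Nrip1, binds the same receptors and represses their targets in mouse muscle. Soleus is a slow, oxidative postural muscle in which these regulators are active.

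The promoters of 4 of the genes are shown because these regulators are known to act on each other's genes. Each sequence is the 250 bases before the gene's start, from RefSeq on GRCm38.p6, in the direction of transcription, with a motif match in capitals. Windows were found for 9 of the 10 genes, 14 windows in all, and each motif was searched on both strands of all 32851 windows in the table.
Tfam, chr10:71238045-71238294, minus strand, GABP site in capitals: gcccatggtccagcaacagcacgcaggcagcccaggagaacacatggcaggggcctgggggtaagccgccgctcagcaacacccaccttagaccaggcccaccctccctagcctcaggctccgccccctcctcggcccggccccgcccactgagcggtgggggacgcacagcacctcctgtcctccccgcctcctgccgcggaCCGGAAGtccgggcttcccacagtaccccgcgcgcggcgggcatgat
Gabpa, chr16:84834874-84835123, plus strand, GABP site on the other strand in capitals: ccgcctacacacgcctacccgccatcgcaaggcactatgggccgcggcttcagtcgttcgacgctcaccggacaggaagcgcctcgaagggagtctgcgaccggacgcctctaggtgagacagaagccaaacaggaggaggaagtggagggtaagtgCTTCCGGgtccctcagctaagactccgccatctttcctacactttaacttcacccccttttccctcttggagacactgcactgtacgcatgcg
Ppara, chr15:85735526-85735775, plus strand, NRF1 core on both strands in capitals: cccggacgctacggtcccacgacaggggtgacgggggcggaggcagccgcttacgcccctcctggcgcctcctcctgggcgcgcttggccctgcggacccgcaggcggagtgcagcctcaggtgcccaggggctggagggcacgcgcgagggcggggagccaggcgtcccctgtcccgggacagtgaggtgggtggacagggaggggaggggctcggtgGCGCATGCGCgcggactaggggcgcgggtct
Ppargc1a, chr5:51567726-51567975, minus strand, CRE core on the other strand in capitals: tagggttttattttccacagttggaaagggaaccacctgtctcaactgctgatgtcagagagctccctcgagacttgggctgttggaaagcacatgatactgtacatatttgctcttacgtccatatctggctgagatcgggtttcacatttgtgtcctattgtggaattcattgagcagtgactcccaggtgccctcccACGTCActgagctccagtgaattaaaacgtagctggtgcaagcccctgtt

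The GABP site searched was CCGGAAG, which 6.91% of all windows held, and it lay 47 bases before the start of Tfam and 93 bases before that of Gabpa. The NRF1 core GCATGCGC, in 2.26% of windows, lay in the Ppara window on both strands, 31 and 29 bases before the start and overlapping, and 34 bases before the start of Esrra. The CRE core TGACGT, bound by CREB family factors and part of the full CRE TGACGTCA, was in 6.47% of windows and lay 50 bases before the start of Ppargc1a, while the full CRE (1.55% of windows) was in 0 windows of these genes. The ERR element TCAAGGTCA (0.387% of windows) was likewise in 0 windows of these genes. These are matches of letters only, and binding was not measured.

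The 60-base probes behind 3 of the results that follow are given as the deposited files hold them, with mm9 positions from the same files. The first read the highest Nrip1 signal, the second was the Gabpa probe whose groups did not overlap, and the last was the dimmer Ppargc1a probe, in which capitals mark a stop codon that ends 1 of its reading frames.
Nrip1 probe, chr16:76291555-76291614, minus strand: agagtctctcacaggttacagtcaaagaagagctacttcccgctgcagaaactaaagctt
Gabpa probe, chr16:84857416-84857680, plus strand: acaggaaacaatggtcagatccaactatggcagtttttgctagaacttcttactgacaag
Ppargc1a probe, chr5:51849419-51849478, minus strand: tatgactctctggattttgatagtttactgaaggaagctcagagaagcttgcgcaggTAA

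The Gabpa probe spans 265 bases of the genome with 60 of its own, and 1 of its 3 reading frames was open throughout.

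Of the 10 regulators, 0 passed an adjusted p of 0.05 in limma with Benjamini-Hochberg adjustment over all 22222 genes, where 0.117% of all genes did. At an unadjusted p under 0.05 there were 2, Nrip1 and Tfam, against 19.7% of all genes, 10.1% higher and 9.66% lower. The same 2 genes had groups that did not overlap, both higher in P. gingivalis samples, where 13.4% of all genes were apart in either direction 7.35% higher and 6.07% lower. The difference was above 0 for 7 of the 10 and below 0 for 3, with a median of 0.08, against a median of -0.01 and 47.7% above 0 over all genes. The 26 genes past the threshold over the whole array were 8 higher and 18 lower, and this split depends on scaling: quantile normalization gave 121 higher and 53 lower, and centring each array on the median of its kept probes gave 57 higher and 34 lower. None of the 26 was a regulator of this set.

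**Figure D1:**
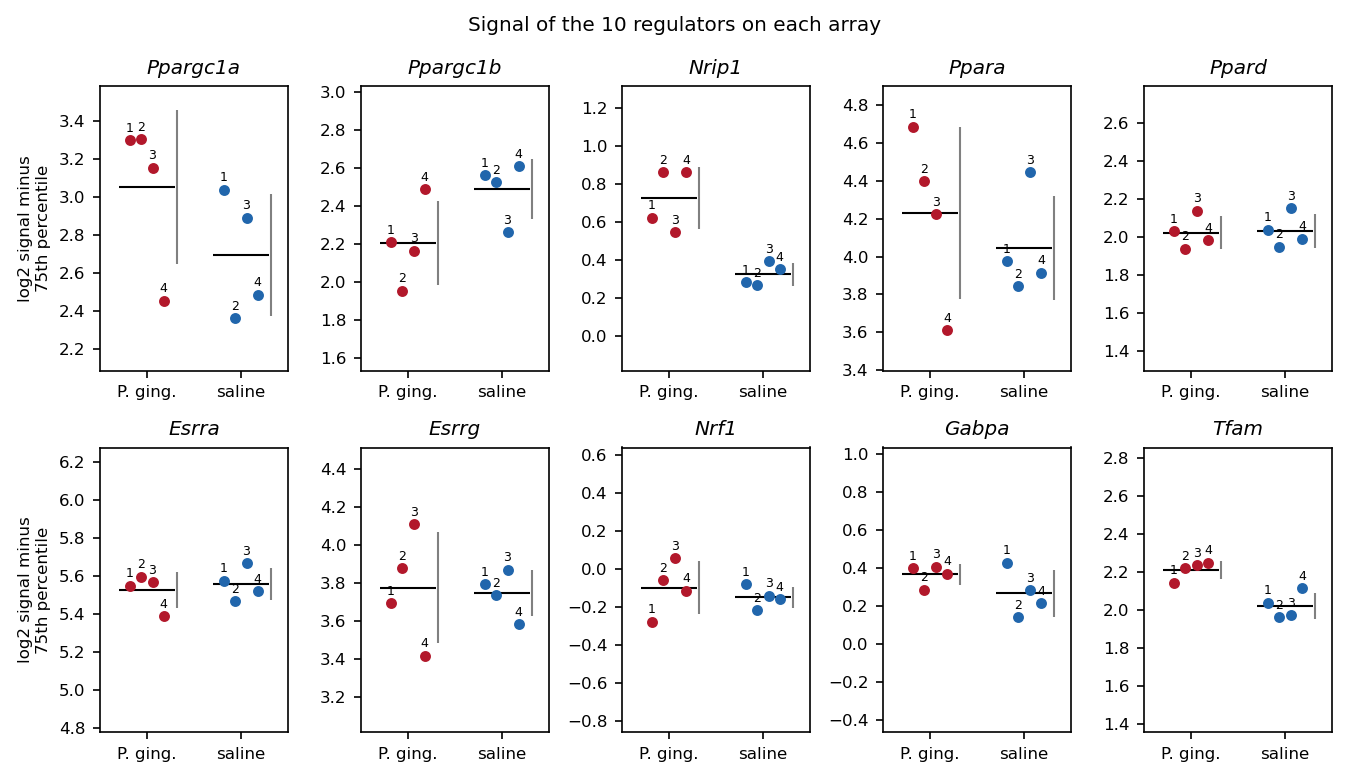
Log2 signal relative to the array's 75th percentile for the 10 regulators, 1 panel per gene, with a numbered point per array, P. gingivalis left of saline, a horizontal line at each group's mean and a vertical line of 1 SD either side of it, and axes of equal length in log2 units. Nrip1 and Tfam are the 2 genes whose groups do not overlap, and P. gingivalis 4 is the lowest point of its group for Ppargc1a, Ppara, Esrra and Esrrg.

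Among the coactivators, Ppargc1a, the inducible member that responds to exercise and cold, was spread widely within both groups. Its values were 3.30, 3.31, 3.15 and 2.45 in P. gingivalis samples 1 to 4, against 3.04, 2.36, 2.89 and 2.49 in saline samples 1 to 4. P. gingivalis 1 to 3 lay above all saline samples, but P. gingivalis 4 lay below 3 of the saline samples, so the groups overlapped. The means were 3.05 ± 0.41 in P. gingivalis samples and 2.69 ± 0.32 in saline samples (SD, n = 4 each), a difference of 0.36 ± 0.23 (SE) with an adjusted p of 0.424 in limma. The 95% interval of the difference ran from -0.17 to 0.89 on the log2 scale. The second probe, which carries the stop codon shown above, read 1.38, 1.39, 1.19 and 0.36 in P. gingivalis samples against 1.04, 0.55, 1.08 and 0.52 in saline samples. It placed the samples in a like way, with P. gingivalis 4 lowest of all 8, and differed by 0.28 ± 0.26 (adjusted p = 0.561, limma over all probes).

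Ppargc1b, the related coactivator that also promotes mitochondrial and lipid genes, ran the other way. Its values were 2.21, 1.95, 2.17 and 2.49 in P. gingivalis samples and 2.56, 2.53, 2.26 and 2.61 in saline samples. P. gingivalis 1 to 3 lay below all saline samples, while P. gingivalis 4 lay above saline 3. The means were 2.20 ± 0.22 in P. gingivalis samples and 2.49 ± 0.16 in saline samples (SD, n = 4 each), a difference of -0.29 ± 0.13 with an adjusted p of 0.259 (limma). The second Ppargc1b probe gave -0.19 ± 0.18, of the same sign. P. gingivalis 4, the lowest of its group for Ppargc1a, was thus the highest of its group for Ppargc1b.

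Nrip1, the corepressor, had the smallest p of the set. Its brightest probe read 0.62, 0.86, 0.55 and 0.86 in P. gingivalis samples, against 0.28, 0.27, 0.39 and 0.35 in saline samples. All 4 P. gingivalis samples lay above all 4 saline samples. The means were 0.72 ± 0.16 in P. gingivalis samples and 0.32 ± 0.06 in saline samples (SD, n = 4 each), a difference of 0.40 ± 0.09 or 1.32-fold, with an interval of 0.20 to 0.60. Its unadjusted p was 0.00181 and its adjusted p 0.0834 in limma, so it missed the threshold. It passed under 4 other treatments of the data: with normexp background correction (0.38, adjusted p = 0.0464), with dim probes left in (0.40, adjusted p = 0.0297), with a trended and robust variance (0.40, adjusted p = 0.0387) and with arrays centred on the median of all probes (0.54, adjusted p = 0.0303). With dim probes left in, 5154 of all 36895 genes passed, 4642 of them lower, and the unadjusted p of Nrip1 was larger, at 0.00341 (limma). The centring on all probes puts the median of all genes at 0.13. With the mean of its 5 kept probes in place of the brightest one, the difference was 0.18 (adjusted p = 0.318).

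The 5 Nrip1 probes did not read alike. The second probe, at chr16:76288478-76288537 on the minus strand of mm9, read -2.25, -1.96, -2.11 and -1.96 in P. gingivalis samples and -2.37, -2.57, -2.30 and -2.34 in saline samples. It too kept the groups apart, with a difference of 0.32 ± 0.09 (adjusted p = 0.118, limma over all probes). The other 3 probes lie further along the chromosome, at chr16:76328642-76328701, chr16:76328748-76328807 and chr16:76351861-76351920, upstream of the first 2 in the direction of transcription. They gave 0.08 ± 0.11, 0.04 ± 0.13 and 0.08 ± 0.11, and their groups overlapped. The difference between probes was not tested. Which Nrip1 transcripts each probe reads is not given in the files' annotation beyond 1 accession per probe.

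**Figure D2:**
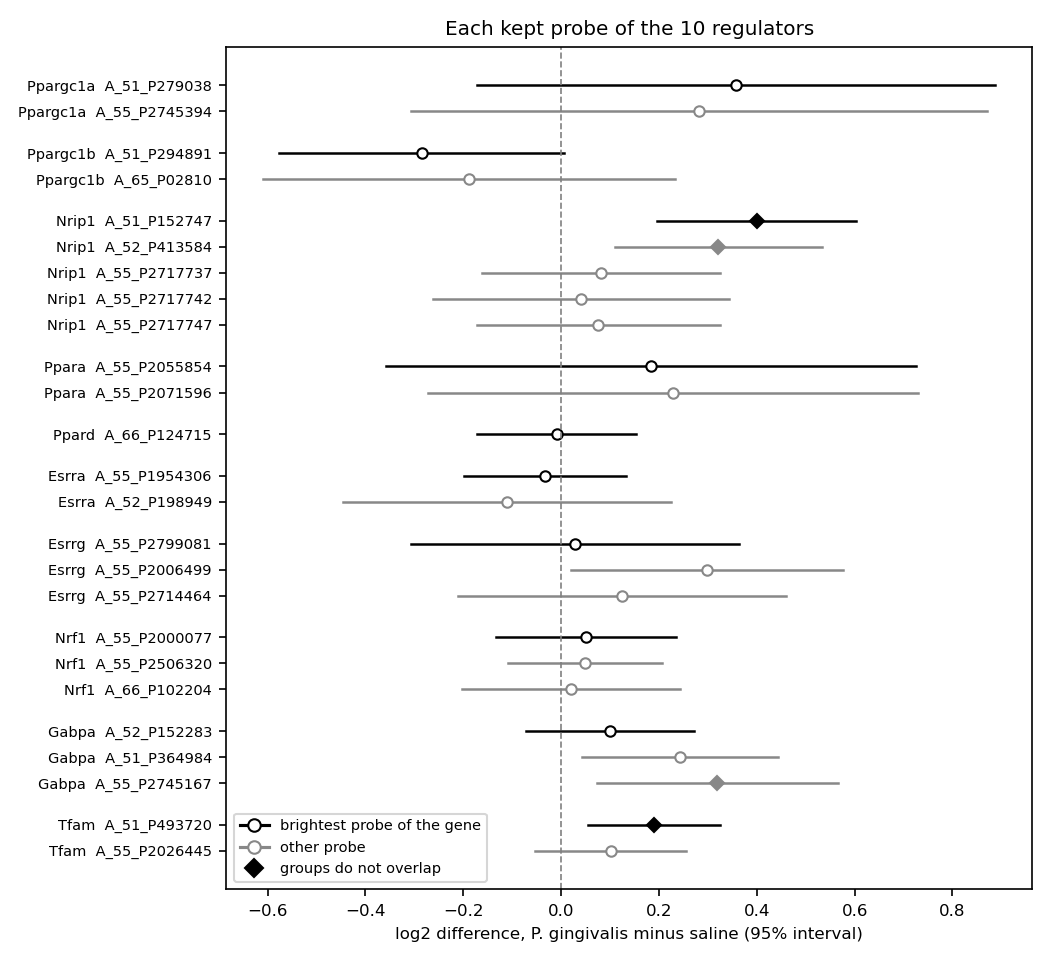
Log2 difference, P. gingivalis minus saline, for each of the 25 kept probes of the 10 regulators, with its 95% interval from limma as a bar, black for the brightest probe of a gene, grey for its others, and diamonds where the groups do not overlap. The first 2 Nrip1 probes lie at 0.40 and 0.32 while the other 3 lie between 0.04 and 0.08, and the 3 Gabpa probes lie at 0.10, 0.24 and 0.32.

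Over all probes of the set, 20 of the 25 lay above 0 and 4 had groups that did not overlap, all 4 higher in P. gingivalis samples, where 8.74% of all 33637 kept probes were apart and higher. The 4 were both Nrip1 probes above, the brightest Tfam probe and 1 Gabpa probe. None passed the threshold, the smallest adjusted p being 0.0792 for Nrip1, while 0.169% of all probes did. The 25 probes are repeat readings of 10 genes, of which 7 lay above 0 on their brightest probe, against 47.7% of all genes. All 9 genes with more than 1 kept probe had probes of 1 sign. The remaining probe, one of Nrf1, was not well above background on any array and gave no fold.

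Of the nuclear receptors, Ppara, which drives fatty acid oxidation when bound by fatty acid ligands, varied most. It read 4.68, 4.40, 4.22 and 3.61 in P. gingivalis samples, against 3.98, 3.84, 4.44 and 3.91 in saline samples. The highest and the lowest of the 8 samples both came from the P. gingivalis group, and the groups overlapped. The means were 4.23 ± 0.45 in P. gingivalis samples and 4.04 ± 0.27 in saline samples (SD, n = 4 each), a difference of 0.18 ± 0.23 with an interval of -0.36 to 0.73 (adjusted p = 0.693, limma). Its second probe gave 0.23 ± 0.22, with the same sample lowest.

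Ppard, the PPAR that predominates in oxidative fibres, was almost level. It read 2.03, 1.94, 2.14 and 1.98 in P. gingivalis samples, against 2.04, 1.95, 2.15 and 1.99 in saline samples. The groups covered the same range, and the difference was -0.01 ± 0.07 (adjusted p = 0.955, limma), with an interval of -0.17 to 0.15. That interval was the narrowest among the PPAR and ERR receptors.

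Esrra, whose product ERRalpha is a main partner of PGC-1alpha on respiratory chain genes, was also close to level. It read 5.55, 5.59, 5.57 and 5.39 in P. gingivalis samples, against 5.57, 5.47, 5.66 and 5.52 in saline samples. The groups overlapped, with P. gingivalis 4 the lowest of all 8. The difference was -0.03 ± 0.07 (adjusted p = 0.824, limma), with an interval of -0.19 to 0.13, and its dimmer second probe gave -0.11 ± 0.15.

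Esrrg, whose product ERRgamma is active without ligand and is enriched in slow muscle, read 3.69, 3.88, 4.11 and 3.42 in P. gingivalis samples, against 3.79, 3.74, 3.87 and 3.59 in saline samples. The P. gingivalis samples held both the highest and the lowest value. The difference was 0.03 ± 0.14 (adjusted p = 0.931, limma), and without P. gingivalis 3 and saline 1, the samples lowest in fast-fibre markers, it was -0.07. A second probe, at chr1:190038192-190038251 on the plus strand of mm9, read 3.10, 3.16, 3.47 and 2.93 in P. gingivalis samples against 2.83, 2.84, 3.04 and 2.75 in saline samples. There only P. gingivalis 4 lay within the saline range, and the difference was 0.30 ± 0.12 (adjusted p = 0.215, limma over all probes). The remaining Esrrg probe gave 0.13 ± 0.15, so the size of the Esrrg difference depended on the probe.

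Nrf1, the nuclear respiratory factor that binds the NRF1 core shown in the Ppara promoter, read -0.28, -0.06, 0.06 and -0.12 in P. gingivalis samples, against -0.08, -0.22, -0.14 and -0.16 in saline samples. The saline samples all lay within the range of the P. gingivalis samples. The difference was 0.05 ± 0.08 (adjusted p = 0.747, limma), and the other 2 kept probes gave 0.05 and 0.02.

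Gabpa, the DNA-binding subunit of GABP, read 0.40, 0.29, 0.41 and 0.37 on its brightest probe in P. gingivalis samples, against 0.43, 0.14, 0.28 and 0.22 in saline samples. Saline 1 was the highest of all 8, and the groups overlapped, with a difference of 0.10 ± 0.07 (adjusted p = 0.478, limma). The probe printed above read -1.57, -1.55, -1.25 and -1.61 in P. gingivalis samples, against -1.77, -1.96, -1.63 and -1.89 in saline samples. On that probe the groups did not overlap, although P. gingivalis 4 and saline 3 were only just apart, and the difference was 0.32 ± 0.11 (adjusted p = 0.158, limma over all probes). The remaining Gabpa probe gave 0.24 ± 0.09 (adjusted p = 0.175, limma over all probes). In the authors' deposited table the single Gabpa row is the brightest probe. There it differed in size by 0.25 (adjusted p = 0.114), against 0.10 here, so the difference on that probe depended on the processing.

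Tfam, which packages and transcribes mitochondrial DNA and whose promoter holds a GABP site, read 2.15, 2.22, 2.24 and 2.25 in P. gingivalis samples, against 2.04, 1.96, 1.97 and 2.12 in saline samples. All 4 P. gingivalis samples lay above all 4 saline samples. The means were 2.21 ± 0.05 in P. gingivalis samples and 2.02 ± 0.07 in saline samples (SD, n = 4 each), a difference of 0.19 ± 0.06 or 1.14-fold, with an interval of 0.06 to 0.32. The unadjusted p was 0.00982 and the adjusted p 0.135 in limma. Tfam passed under 1 other treatment, the centring on the median of all probes (0.33, adjusted p = 0.0381). The second Tfam probe gave 0.10 ± 0.07, and there saline 4 lay above 3 of the P. gingivalis samples. The difference on the brightest probe was 0.17 to 0.22 with any 1 array left out.

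In the authors' deposited table, 19 rows covered all 10 genes and 0 had an adjusted p under 0.05, against 431 of its 28250 rows. The smallest was 0.0624 for Nrip1, with a log2 fold change of -0.38 by that table's column names, which is 0.38 higher in P. gingivalis samples by the sample records.

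The regulators' levels were also compared with each other from sample to sample. P. gingivalis 4 was the lowest of its group for Ppargc1a, Ppara, Esrra and Esrrg, and it was the highest of its group for Ppargc1b. Over the 8 samples Ppargc1a and Ppara had a Pearson r of 0.82 (exact permutation p = 0.0199, adjusted over 9 relations 0.152) and a Spearman rho of 0.79 (exact p = 0.0279, adjusted 0.251). Without the 2 samples farthest from the Ppargc1a median, saline 2 and P. gingivalis 4, r was 0.67, and within the groups it was 0.95 in P. gingivalis samples and 0.57 in saline samples. Ppargc1a and Ppargc1b had a Pearson r of -0.78 (exact permutation p = 0.0337, adjusted 0.152) and a Spearman rho of -0.71 (exact p = 0.0576, adjusted 0.259). There r was -0.77 without the same 2 samples, and -0.88 in P. gingivalis samples and -0.37 in saline samples. For Esrra r was 0.66 and dropped to 0.19 without those 2 samples, so that relation rests on them. None of the 9 relations of Ppargc1a to the other regulators passed the adjustment, and all genes of an array share its depth of signal and its scaling.

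**Figure D3:**
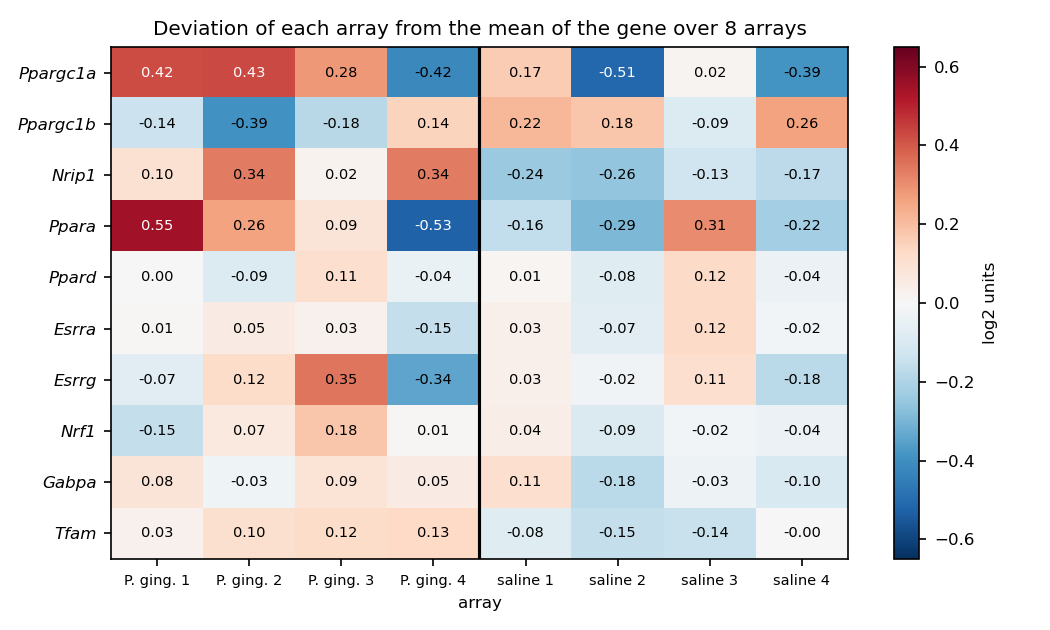
Deviation of each regulator from its mean over the 8 arrays, in log2 units, with 1 row per gene, 1 column per array and red above and blue below the mean, P. gingivalis arrays left of saline arrays. P. gingivalis 4, saline 2 and saline 4 are the low arrays for Ppargc1a. Ppargc1b lies on the opposite side of its mean to Ppargc1a on every array except saline 1, though only slightly on saline 3 (-0.09 against 0.02).

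Of 19412 genes well above background on all arrays, the 5 whose centred values lay nearest to those of Ppargc1a were the transcript ENSMUST00000120661, BB123696, Gm34584, Gbp10 and Nectin4, with root mean square distances of 0.115, 0.117, 0.131, 0.136 and 0.141 log2 units over the 8 samples. Gbp10 encodes an interferon-inducible GTPase and Nectin4 a cell adhesion protein. Their differences between groups were 0.24 to 0.57, with adjusted p of 0.216 to 0.521 in limma. Ppara stood at rank 52 with a distance of 0.212, the nearest of the other regulators. A gene that did not vary at all would lie at 0.364.

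The surrounding network was described in 5 lists of genes. The first held 30 other coactivators, corepressors and partner receptors, all 30 measured. Of these 0 passed the threshold, 5 were higher and 1 lower at an unadjusted p under 0.05 (20.0% of the list, against 19.7% of all genes), and the median difference was 0.01. Ep300, the acetyltransferase that PGC-1alpha recruits, averaged -0.13 ± 0.17 in P. gingivalis samples and -0.61 ± 0.07 in saline samples (SD, n = 4 each). Its groups did not overlap, and it differed by 0.48 ± 0.09 (adjusted p = 0.0668, limma). Tfeb, a transcription factor of lysosome genes, differed by 0.23 (adjusted p = 0.114), and Hdac3, the deacetylase of nuclear receptor corepressor complexes, by 0.25 (adjusted p = 0.173). Lpin1, which encodes the coactivator and phosphatidate phosphatase lipin 1, differed by 0.31 (adjusted p = 0.180), and the groups were apart for all 4 of these genes. Over the whole list the groups were apart for 6 of 30 genes, 5 higher and 1 lower, which is 20.0% of the list against 13.4% of all genes. The 1 lower, named here after its value was seen, was Pparg, the PPAR of fat cells, at -0.22 (adjusted p = 0.184, limma). The list's median was -0.015 with P. gingivalis 1 left out and 0.032 with P. gingivalis 4 left out.

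The PPAR-responsive list held 30 fuel genes, of which 29 were measured and Fgf21 was not. The difference was above 0 for 21 and below 0 for 8, with a median of 0.07, and 0 passed the threshold. The 4 with the smallest p were Acaa2, a thiolase of mitochondrial beta-oxidation (0.16, adjusted p = 0.146), Angptl4, a secreted inhibitor of lipoprotein lipase (0.51, adjusted p = 0.178), Cpt1b, the muscle carnitine palmitoyltransferase (0.19, adjusted p = 0.187), and Ehhadh, a peroxisomal beta-oxidation enzyme (0.68, adjusted p = 0.194). Acaa2 read 8.20, 8.21, 8.20 and 8.16 in P. gingivalis samples against 8.06, 7.95, 8.05 and 8.07 in saline samples, and its groups were apart. Angptl4 and Ehhadh differed by more but their groups overlapped. Leaving out P. gingivalis 1 gave a list median of 0.042, and leaving out saline 3 gave 0.098. In the list 4 genes were apart and higher and 1 was apart and lower, 17.2% of the list against 13.4% of all genes.

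The ERR-responsive list held 30 oxidative genes, of which 29 were measured and Cox5b was not. The difference was above 0 for 25 and below 0 for 4, with a median of 0.09, and 0 passed the threshold. Above 0 lay 47.7% of all genes and 52.9% of genes whose mean signal was above their array's 75th percentile. The groups were apart for 9, all higher in P. gingivalis samples, which is 31.0% of the list, against 7.35% of all genes and 11.0% of the 9712 genes whose mean signal was above their array's 75th percentile. Mb, the oxygen store myoglobin, had the smallest adjusted p at 0.0649, with a difference of 0.32 ± 0.06. Slc25a4, the muscle exchanger of ADP for ATP, differed by 0.22 (adjusted p = 0.111), and Idh3b, a subunit of mitochondrial isocitrate dehydrogenase, by 0.22 (adjusted p = 0.156). The list's median was 0.056 without saline 2 and 0.117 without P. gingivalis 4. Under quantile normalization the medians of the ERR and PPAR lists were both 0.01, and the median of all genes was also 0.01. The slow-fibre marker sums given above also did not overlap between the groups. The endothelial marker sum, over 6 of 6 markers, was 34.9 to 39.2 times the 75th percentile in P. gingivalis samples and 45.4 to 47.8 times in saline samples. By mean log2 level of the same 6 markers the groups overlapped, at 1.54 to 1.87 in P. gingivalis samples and 1.79 to 1.90 in saline samples. Egfl7, Kdr, Cldn5 and Cdh5 were lower in P. gingivalis samples, while Pecam1 and Tie1 were higher, each by 0.18. The part of the fibre and endothelial markers in the result was not tested. Of the 5 brown fat markers, Ucp1 and Elovl3 were well above background on 0 of the 8 arrays. The sum over the other 3 overlapped, at 371 to 403 times in P. gingivalis samples and 348 to 404 times in saline samples. That sum mostly follows Cox7a1, whose probe was the brightest of the 3. By mean log2 level of the same 3 markers the groups did not overlap, at 3.73 to 3.91 in P. gingivalis samples and 3.92 to 4.08 in saline samples. Dio2 differed by -0.59 (adjusted p = 0.143, limma), while Cidea and Cox7a1 differed by 0.08 and 0.04.

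**Figure D4:**
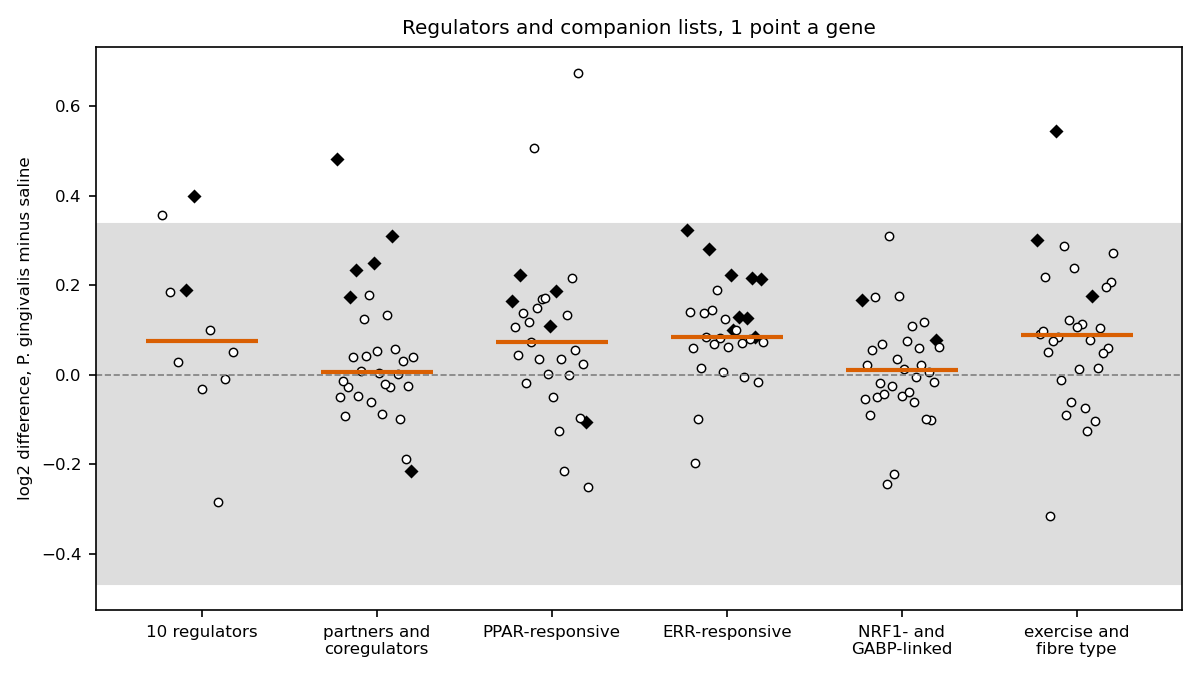
Log2 differences, P. gingivalis minus saline, of the measured genes of the 5 surrounding lists and of the 10 regulators, with a point per gene, diamonds where the groups do not overlap, a bar at each list's median and a grey band for the middle 90% of all 22222 genes. The medians lie between 0.01 and 0.09, and the ERR-responsive genes have 25 of 29 points above 0.

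The NRF1- and GABP-linked list held 32 genes of mitochondrial maintenance, all measured. The difference was above 0 for 17 and below 0 for 15, with a median of 0.01, which ran from -0.023 without P. gingivalis 3 to 0.032 without saline 1. The groups were apart for 2 genes, both higher, which is 6.25% of the list, against 7.35% of all genes apart and higher. Tomm22, a receptor of the outer membrane import channel, differed by 0.17 (adjusted p = 0.165), Timm44, which tethers the inner membrane import motor, by 0.17 (adjusted p = 0.208), and Top1mt, the mitochondrial topoisomerase, by 0.18 (adjusted p = 0.275). Gabpb1, the partner of Gabpa in the GABP complex, averaged 0.37 ± 0.18 in P. gingivalis samples and 0.61 ± 0.07 in saline samples (SD, n = 4 each), a difference of -0.24 ± 0.10 (adjusted p = 0.216, limma). The partners of GABP thus had differences of opposite sign, and neither passed the threshold.

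The list of exercise and fibre-type genes linked to PGC-1alpha in muscle held 30 genes, all measured. It includes kinase, calcineurin and atrophy genes, so its counts are not counts of PGC-1alpha targets. The difference was above 0 for 23 and below 0 for 7, with a median of 0.09, and 0 passed the threshold. Esr1, the oestrogen receptor alpha, averaged -0.03 ± 0.05 in P. gingivalis samples and -0.33 ± 0.08 in saline samples (SD, n = 4 each), a difference of 0.30 ± 0.06 with groups apart (adjusted p = 0.0729, limma). Camk2a, a calcium-dependent kinase, read 2.46, 2.01, 2.11 and 2.22 in P. gingivalis samples against 1.23, 1.78, 1.76 and 1.85 in saline samples, a difference of 0.55 ± 0.16 (adjusted p = 0.129). Saline 1 was the lowest of all 8 for Camk2a, and the groups were apart. Mfn1, a mitochondrial fusion protein, differed by 0.24 (adjusted p = 0.164), and Ppp3cb, a catalytic subunit of calcineurin, by 0.18 (adjusted p = 0.178). In this list 3 of 30 genes were apart, all higher in P. gingivalis samples, a share near the 7.35% of all genes that were apart and higher. The median was 0.057 without saline 2 and 0.115 without saline 3.

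**Figure D5:**
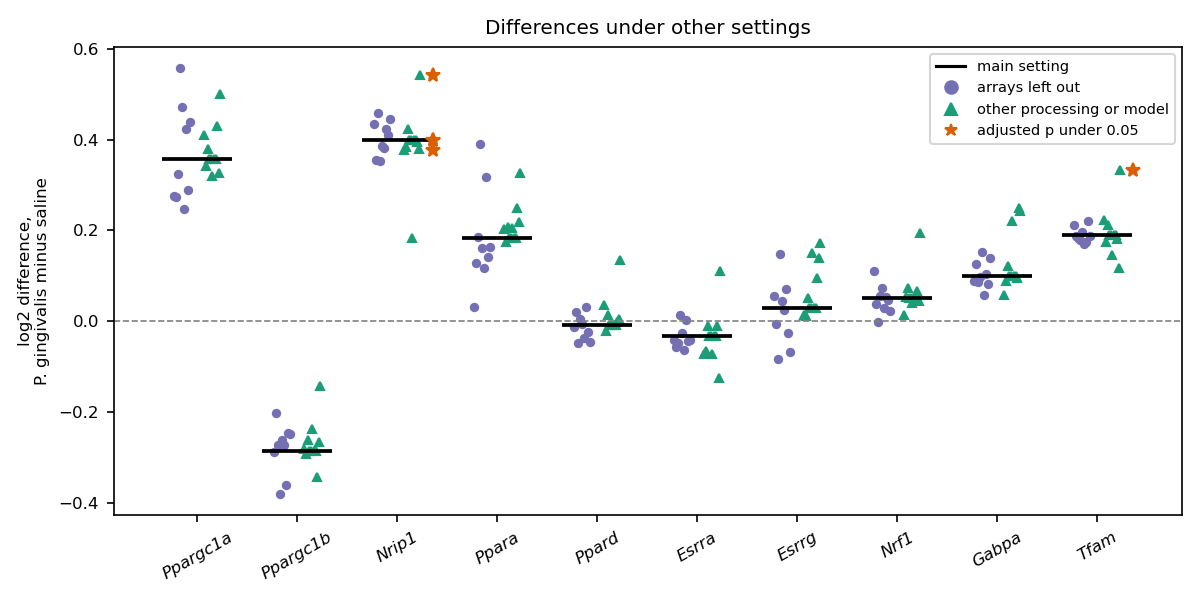
Log2 difference, P. gingivalis minus saline, of each of the 10 regulators under the other treatments of the data, with circles for arrays left out, triangles for other processing or models, a bar at the value given in the text and a star beside values whose adjusted p was under 0.05. Nrip1 and Tfam stay above 0 and Ppargc1b below 0 at every point, while Ppard, Esrra, Esrrg and Nrf1 lie on both sides of 0.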

How the data were processed

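Soleus RNA of 8 samples (4 P. gingivalis, 4 saline) was hybridised to 1-colour Agilent mouse arrays. The deposited intensity values are background-subtracted processed signals from Agilent Feature Extraction, version 11.1 per the submitters' processing notes, with probe positions on mm9. The file headers give 11.0.1.1 as the version of the grid placement. A deposited table holds log2 values, log2 fold changes and p-values by the authors, and its moderated statistic and log odds, each a score per the deposited column names, were not used. Each signal was taken as log2 minus the array's 75th percentile over non-control spots. Control spots and outlier flags were left out, affecting 239 probes on at least 1 array. Of 56605 probes, 33637 well above background on at least 4 arrays were kept, and the brightest kept probe stood for each of 22222 genes. Names came from RefSeq accessions (32994 probes), symbols (10224) or older symbols (520), and 12867 kept the file's name.

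The comparison of groups used R 4.3.3 with limma 3.58.1 (lmFit, eBayes, two-sided, Benjamini-Hochberg over all genes or, where said, over all kept probes). The procedure was tested on simulated data. Correlations used exact permutation over pairings. The regulators, lists and tests were chosen with earlier results of these data known. Named genes were all 10 regulators with every probe, the 4 genes of each list with the smallest p, and the 5 genes nearest to Ppargc1a. Of the genes so named, 1 is not reported here. Arrays correlated at 0.989 to 0.995 within groups and 0.989 to 0.992 between groups. The extraction status in the file headers was 1 for P. gingivalis 2 and 0 for all other arrays, and its meaning is not stated. That array also had the lowest 75th percentile, 648, with saline 3 next at 696. Precision is limited by the number of arrays. Other settings tried were normexp correction, quantile and median scaling, other probe filters and probe rules, a replicate block, array weights, other variance models, the deposited values and samples left out. Promoter windows end at the base before each RefSeq start.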

Additional observations from a re-analysis of the deposited data

Results flagged for a closer look

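In 3 of the 50 groups of 4 values examined, 1 array stood far from the others of its group, by a gap to its neighbour that exceeded 0.829 of the group's range. Chance flags about 1 in 20 such groups. On the Gabpa probe whose groups did not overlap the gap was 0.851 of the range in the P. gingivalis group, where P. gingivalis 3 read -1.25 and the others -1.55 to -1.61. On the second Tfam probe it was 0.893 in the P. gingivalis group, where P. gingivalis 4 read 1.46 against 1.34 to 1.35. On the same probe it was 0.88 in the saline group, where saline 4 read 1.42 against 1.21 to 1.24.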

How the results depend on the processing

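Of the 10 regulators, 0 passed the threshold here, 1 passed with normexp correction, with no filter on dim probes, with a trended and robust variance and at an adjusted p under 0.10, and 2 passed with centring on the median of all probes (chosen after seeing the data) and at an unadjusted p under 0.05. With any 1 array left out 0 passed, and 5 to 9 lay above 0. Genes past the threshold over the whole array numbered 26 here, 480 with normexp, 174 with quantile normalization, 91 with median centring, 5154 with no filter, 261 among probes well above background on all arrays, 9 with the mean of kept probes, 567 with a trended and robust variance, 199 with array weights, 362 with the deposited values, 1593 with centring over all probes, 0 without saline 1 and P. gingivalis 3 (also chosen after seeing the data) and 2 to 6 with any 1 array left out. The cause was not tested. Same-numbered samples correlated at 0.06, -0.06, -0.04 and 0.23 over their deviations. These values cannot show whether the numbers pair the samples, and the labels do not say. With the replicate block 0 genes passed. Ppard was above 0 with normexp (0.037), median centring (0.014), the deposited values (0.0040), centring over all probes (0.13) and without P. gingivalis 2 (0.019), P. gingivalis 4 (0.0041) or saline 3 (0.031), with -0.048 to 0.031 over single arrays left out. Esrra was above 0 with centring over all probes (0.11), and without P. gingivalis 4 (0.014) or saline 3 (0.0036), with -0.062 to 0.014 over single arrays left out. Esrrg was below 0 without P. gingivalis 2 (-0.0062), P. gingivalis 3 (-0.083), saline 4 (-0.025), or saline 1 and P. gingivalis 3 (-0.067), with -0.083 to 0.15 over single arrays. Nrf1 was below 0 without P. gingivalis 3 (-0.00090), with 0.11 the highest over single arrays. The other 6 regulators kept their sign under all 20 alternatives, with single arrays left out giving 0.25 to 0.56 for Ppargc1a, -0.38 to -0.20 for Ppargc1b, 0.35 to 0.46 for Nrip1, 0.03 to 0.39 for Ppara, 0.06 to 0.15 for Gabpa and 0.17 to 0.22 for Tfam. The highest Gabpa difference over all alternatives was 0.25, with the deposited values. Adjusted p for Nrip1 was 0.0297 to 0.318 over all alternatives. In the 5 surrounding lists 0 genes passed here, and the most that passed in any 1 list was 3 with a trended and robust variance (ERR list), 2 with no filter, 1 with normexp, 1 among probes well above background on all arrays, 1 with the deposited values and 4 with centring over all probes. With the other alternatives 0 passed.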
